A study of Mus musculus with 6 samples.

Results

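The genes described here are the protein-coding mouse zinc finger genes with symbols from Zfp704 to Zfp999. The rule that picks them uses symbol and biotype alone, but it was set with earlier results of these data known. The table of 25904 genes holds 96 such genes under 95 symbols, since Zfp708 stands on 2 identifiers, and the highest number present is Zfp964. Of these, 86 reached a mean of at least 20 normalised reads over the libraries and were tested, among 12332 genes in all.

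RNA was sequenced from F9 cells, mouse teratocarcinoma cells that differentiate towards extraembryonic endoderm under all-trans retinoic acid (RA), a derivative of vitamin A. All cells were grown in medium with charcoal-stripped serum, and all carried a short hairpin RNA, the controls included. The 3 lines were shGFP, the control with a hairpin against the jellyfish protein GFP; shCtbp2, with a hairpin against the corepressor Ctbp2; and shRxr, with a hairpin against the retinoid X receptor, the partner of RA receptors on DNA. Each line was harvested untreated (UT) and after 48 h in 1 µM RA. Each of these 6 groups holds a single library. The labels do not say which Rxr gene was targeted, nor how many hairpins or clones a line stands for.

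Most of these genes encode C2H2 proteins. In each finger of such a protein a pair of cysteines and a pair of histidines hold a zinc ion, and arrays of fingers read DNA sequence. Many also carry a KRAB domain at the amino end, which recruits the corepressor Trim28 and, through it, the histone methyltransferase Setdb1, heterochromatin proteins and DNA methylation. In pluripotent and embryonal carcinoma cells this machinery keeps endogenous retroviruses silent. KRAB zinc finger genes often stand in tandem clusters formed by gene duplication.

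The longest annotated coding sequence could be read for 88 members. A KRAB sequence pattern was found in 59 of them and not in 29. At least 1 C2H2 finger was found in 84, with a median of 11 fingers and a maximum of 23. Members with a KRAB match had a median of 11 fingers and those without a median of 7.

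The transcripts of these genes are poor in GC. The median GC content was 42.5% over the 89 members with a value, with a range of 35.3% to 68.7%, against 50.8% over the tested genes. Members with a KRAB match had a median of 41.3% and those without 50.03%. One finger from each of 5 members is shown because it carries both features, the repeated zinc-binding frame and the base composition. The capitals mark the codons of the 2 cysteines and the 2 histidines, and each run is the coding strand of a single finger near the middle of the array.
Zfp936: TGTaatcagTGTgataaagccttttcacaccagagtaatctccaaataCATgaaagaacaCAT
Zfp871: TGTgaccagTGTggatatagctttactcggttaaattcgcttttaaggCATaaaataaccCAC
Zfp809: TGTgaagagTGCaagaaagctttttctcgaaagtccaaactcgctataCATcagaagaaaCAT
Zfp819: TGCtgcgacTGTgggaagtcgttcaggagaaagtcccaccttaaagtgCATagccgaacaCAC
Zfp768: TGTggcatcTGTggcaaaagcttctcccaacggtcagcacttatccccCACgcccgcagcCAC
These 63-base runs have a GC content of 34.9% in Zfp936, 38.1% in Zfp871, 38.1% in Zfp809, 52.4% in Zfp819 and 60.3% in Zfp768. Zfp936, Zfp871, Zfp809 and Zfp819 hold a KRAB match, and Zfp768 does not.

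Between 9955808 reads (shRxr_RA) and 13322506 reads (shGFP_RA) were counted in genes per library. Levels are normalised reads, that is reads per 10000000 counted in genes, and are not divided by gene length unless stated. Ctbp2 was at 1811 and 701 normalised reads in shGFP untreated and in RA, and at 210 and 55.4 in shCtbp2. Rxra was at 520 and 805 in shGFP and at 73.7 and 82.4 in shRxr, while Rxrb was between 546 and 1085 in all libraries. The summed level of 8 pluripotency markers went from 47811 untreated to 18331 in RA in shGFP, from 46577 to 39401 in shCtbp2 and from 47483 to 33036 in shRxr. Pou5f1, the largest of them, went from 18524 to 26185 in shCtbp2, and the other 7 summed to 28053 and 13215 there, to 29639 and 9801 in shGFP and to 28947 and 19701 in shRxr. The summed level of 11 endoderm markers went from 8909 to 33255, from 9998 to 27151 and from 8300 to 17483 in the same order. The fibroblast markers summed to between 131 and 519, with Postn at 0 in every library, and the neuron markers to between 523 and 1479. The blood markers summed to between 1174 and 2040, and the mitochondrial transcripts to between 119565 and 157971. Single genes carried some of these sums. Laptm5 alone was between 1101 and 1945, while Ptprc, also a blood marker, was at most at 0.837. Of the fibroblast markers, Pdgfrb went from 28.2 to 465 in RA in shGFP and Thy1 from 83.0 to 21.8. In these bulk libraries, fewer cells of a type and less RNA per cell cannot be told apart.

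The question asked of RA was which of these genes changed in F9 cells over the 3 lines, with the lines standing in as repeats. Zfp936, Zfp871, Zfp750, Zfp819 and Zfp953 fell, by 1.10 to 1.52 on the log2 scale, and Zfp768 rose. Of the 5 that fell, Zfp936, Zfp871 and Zfp819 hold a KRAB match. The test was limma's moderated linear model on log2(normalised reads + 10) with Benjamini-Hochberg adjustment over all 12332 genes and a threshold of 0.05. Over all genes it called 10.8% raised and 4.63% lowered, so the 1 raised member of 86 lies below the background and the 5 lowered ones near it. At an unadjusted p under 0.05 there were 22 members, 6 higher and 16 lower, against 31.0% of all genes. The median log2 change was -0.40 over the 86 members, 0.07 over all genes tested and -0.24 over 233 other protein-coding Zfp genes. These counts rested on single lines. Line is a term of the fit, so leaving out either library of a line takes out that line's whole RA difference. The fits without its untreated and without its RA library are therefore not separate checks. Without the shRxr untreated library, or without its RA library, 4 members were raised and 27 lowered. Of all 12332 genes 1749 were then raised and 1498 lowered without the untreated one, and 1754 and 1499 without the RA one. Without the shGFP untreated library, or without its RA library, no member was called. Calls over all genes fell too, to 371 raised and 92 lowered without the untreated one, and 383 and 86 without the RA one. Without the shCtbp2 untreated library, or without its RA library, none was raised and 1 lowered. Over all genes 640 were then raised and 208 lowered without the untreated one, and 565 and 207 without the RA one. Each of the 6 calls named above was lost without any 1 library of shGFP or shCtbp2.

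Zfp936 (ENSMUSG00000064194), a KRAB gene with 11 fingers at chromosome 7, 50442540 to 50445851 on mm9, was at 324, 277 and 310 normalised reads in untreated shGFP, shCtbp2 and shRxr and at 62.3, 76.2 and 198 in RA. All RA libraries lay below all untreated ones, and shRxr_RA lay well above the other RA libraries. Its level was 5.20 times lower in RA in shGFP (95% interval 4.09 to 6.66, from reads), 3.64 times lower in shCtbp2 (2.83 to 4.72) and 1.57 times lower in shRxr (1.31 to 1.87). The log2 change over the lines was -1.52 with a standard error of 0.32 (limma, Benjamini-Hochberg adjusted p = 0.0072). Such intervals cover counting error only, and none of these differences within a line has a replicate. The promoter of Zfp936 is shown, as are those of Zfp871 and Zfp768 further on, so that the letters of called members can be read beside the motif shares over all promoters. It is read from RefSeq on GRCm38.p6, 250 bases before to 50 after the start, at chr7:43177340-43177639 on the plus strand, with capitals for CCAAT on either strand.
Zfp936 promoter: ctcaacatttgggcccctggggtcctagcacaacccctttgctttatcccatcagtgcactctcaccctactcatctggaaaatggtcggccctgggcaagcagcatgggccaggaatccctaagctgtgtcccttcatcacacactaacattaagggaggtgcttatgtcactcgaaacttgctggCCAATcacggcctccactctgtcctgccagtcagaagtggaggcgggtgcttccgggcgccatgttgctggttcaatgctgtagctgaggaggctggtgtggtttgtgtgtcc

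Zfp871 (ENSMUSG00000024298), a KRAB gene with 15 fingers at chromosome 17, 32908181 to 32925232 on mm9, was at 663, 588 and 590 normalised reads untreated in shGFP, shCtbp2 and shRxr and at 245, 110 and 583 in RA. The RA library of shRxr was level with its untreated one, while those of shGFP and shCtbp2 stood far below all others. The level was 2.71 times lower in RA in shGFP (2.38 to 3.09), 5.35 times lower in shCtbp2 (4.38 to 6.60) and 1.01 times lower in shRxr (0.91 to 1.13). The log2 change over the lines was -1.25 with a standard error of 0.37 (limma, Benjamini-Hochberg adjusted p = 0.036). RefSeq lists 2 promoters for Zfp871. The one shown, at chr17:32788238-32788537 on the minus strand of GRCm38.p6, holds CCAAT on both strands and a GC box, GGGCGG, all in capitals. The other, at chr17:32787498-32787797, holds CCAAT and AGGTCA and no GC box.
Zfp871 promoter: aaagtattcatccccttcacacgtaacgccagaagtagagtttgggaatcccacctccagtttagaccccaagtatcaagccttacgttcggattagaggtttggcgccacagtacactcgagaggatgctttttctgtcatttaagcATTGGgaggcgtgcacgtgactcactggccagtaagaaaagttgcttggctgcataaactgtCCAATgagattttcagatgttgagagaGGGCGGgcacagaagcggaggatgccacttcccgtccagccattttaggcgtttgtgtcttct

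Zfp750, a regulator of terminal differentiation in the epidermis, was at 151, 103 and 121 normalised reads untreated in shGFP, shCtbp2 and shRxr and at 98.3, 25.7 and 45.2 in RA. All RA libraries lay below all untreated ones. The gene held no KRAB match and no finger of the searched spacing. Its level was 1.54 times lower in RA in shGFP (1.23 to 1.94), 4.02 times lower in shCtbp2 (2.62 to 6.39) and 2.68 times lower in shRxr (1.91 to 3.84). The log2 change over the lines was -1.16 with a standard error of 0.31 (limma, Benjamini-Hochberg adjusted p = 0.022). It was the 1 member at least 2-fold lower in shRxr. It overlaps Tbcd in the deposited coordinates, and whether counting used strand is not given in the sources used here.

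Zfp819 is a KRAB gene with 9 fingers that is linked to repression of retroelements. It was at 121, 160 and 96.3 normalised reads untreated in shGFP, shCtbp2 and shRxr and at 39.8, 54.4 and 60.3 in RA. The RA libraries again lay below every untreated one. The level was 3.04 times lower in RA in shGFP (2.21 to 4.24), 2.95 times lower in shCtbp2 (2.17 to 4.05) and 1.60 times lower in shRxr (1.16 to 2.22). The log2 change over the lines was -1.13 with a standard error of 0.30 (limma, Benjamini-Hochberg adjusted p = 0.022).

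Zfp953 was at 116, 101 and 84.5 normalised reads untreated and at 28.5, 32.7 and 72.3 in RA, in the order shGFP, shCtbp2 and shRxr. The RA level of shRxr was close to its untreated level, and the other RA libraries were the lowest. The log2 change over the lines was -1.10 with a standard error of 0.33 (limma, Benjamini-Hochberg adjusted p = 0.042). The gene's identifier is missing from the later annotation used for sequence, so its KRAB status and GC content were not determined, and its span holds the genes Zfp456 and Zfp595.

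Zfp768, with 10 fingers and no KRAB match, was the 1 member that rose. It was at 81.3, 77.8 and 106 normalised reads untreated in shGFP, shCtbp2 and shRxr and at 208, 165 and 164 in RA. All RA libraries lay above all untreated ones. Its level was 2.56-fold higher in RA in shGFP (2.03 to 3.24), 2.13-fold higher in shCtbp2 (1.64 to 2.77) and 1.54-fold higher in shRxr (1.21 to 1.96). The log2 change over the lines was 0.94 with a standard error of 0.28 (limma, Benjamini-Hochberg adjusted p = 0.039). Its promoter, at chr7:127345265-127345564 on the minus strand of GRCm38.p6, holds GGGCGG or its reverse complement at 3 places, in capitals.
Zfp768 promoter: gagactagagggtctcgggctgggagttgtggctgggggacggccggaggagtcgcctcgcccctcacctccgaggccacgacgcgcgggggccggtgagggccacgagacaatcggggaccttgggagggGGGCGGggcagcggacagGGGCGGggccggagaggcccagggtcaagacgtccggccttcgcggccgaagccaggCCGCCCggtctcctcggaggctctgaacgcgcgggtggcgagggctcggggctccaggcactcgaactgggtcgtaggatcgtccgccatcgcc

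**Figure D1:**
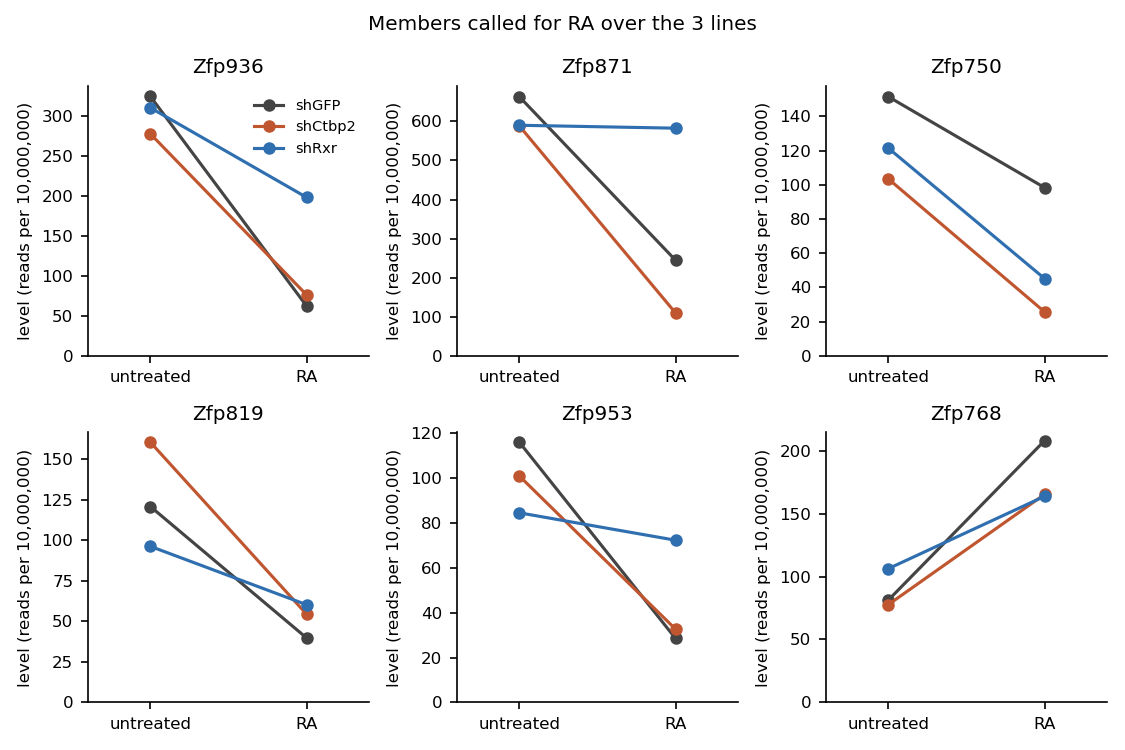
Level in normalised reads (vertical axis, from 0) of the 6 members called for RA, untreated and in RA; each point is 1 library and each line joins the libraries of shGFP, shCtbp2 or shRxr. Among the RA libraries, Zfp936, Zfp871, Zfp819 and Zfp953 are highest in shRxr, and Zfp768 is higher in RA in every line.

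Promoters were found in RefSeq for 84 member symbols, 101 promoters of 300 bases in all. Their median GC content was 53.0%, against 52.7% over all 32851 promoters of the table, so the low GC of the members' transcripts was not seen in their promoters. CCAAT stood on either strand in 61.4% of the members' promoters and in 37.4% of all. GGGCGG stood in 39.6% and 35.7%, the retinoid half-site AGGTCA in 10.9% and 16.3%, and CACCTG in 13.9% and 20.2%. AGGTCA as a direct repeat spaced by 2 bases, or by 5, stood in no member promoter and in 0.00913% of all in each case. A match is a description of letters in this window.

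Line by line, members lay below their untreated level in 63, 70 and 28 of 86 cases in RA, in the order shGFP, shCtbp2, shRxr. Over all genes 42.4%, 47.6% and 40.3% did, so more members than genes at large were lower in shGFP and shCtbp2, and the share in shRxr was somewhat smaller. With 1 library per group there was no test, and members were counted at a 2-fold difference of log2(normalised reads + 10). In shGFP 2 members were higher in RA and 19 lower, where 13.4% and 7.07% of all genes were. In shCtbp2 2 were higher and 34 lower, against 15.1% and 19.3% of all genes. In shRxr 1 was higher (Zfp810) and 1 lower, against 5.26% and 1.46%. The medians were -0.35, -0.83 and 0.11 over the members and 0.12, 0.07 and 0.09 over all genes, in that order.

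In both shGFP and shCtbp2, 8 members were at least 2-fold lower in RA, and none was in all 3 lines. These 8 are 42.1% of the 19 in shGFP and 23.5% of the 34 in shCtbp2, where over all genes the shared ones were 75.7% of 872 and 27.8% of 2377. Of the 86, 40 lay below their untreated level in shGFP and shCtbp2 and above it in shRxr, 21 lay below in every line and 10 above in every line. Of all genes 13.1%, 19.9% and 33.3% did so. The RA libraries all lay below the untreated ones in 16 members and all above in 9, where 13.9% and 24.1% of all genes did so. The lowest of the 6 libraries was shCtbp2_RA in 50 members and shGFP_RA in 18, and the highest was shRxr_RA in 27 and shGFP_UT in 26. Over all genes the shares were 37.3%, 8.25%, 14.6% and 12.9%, in the same order.

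**Figure D2:**
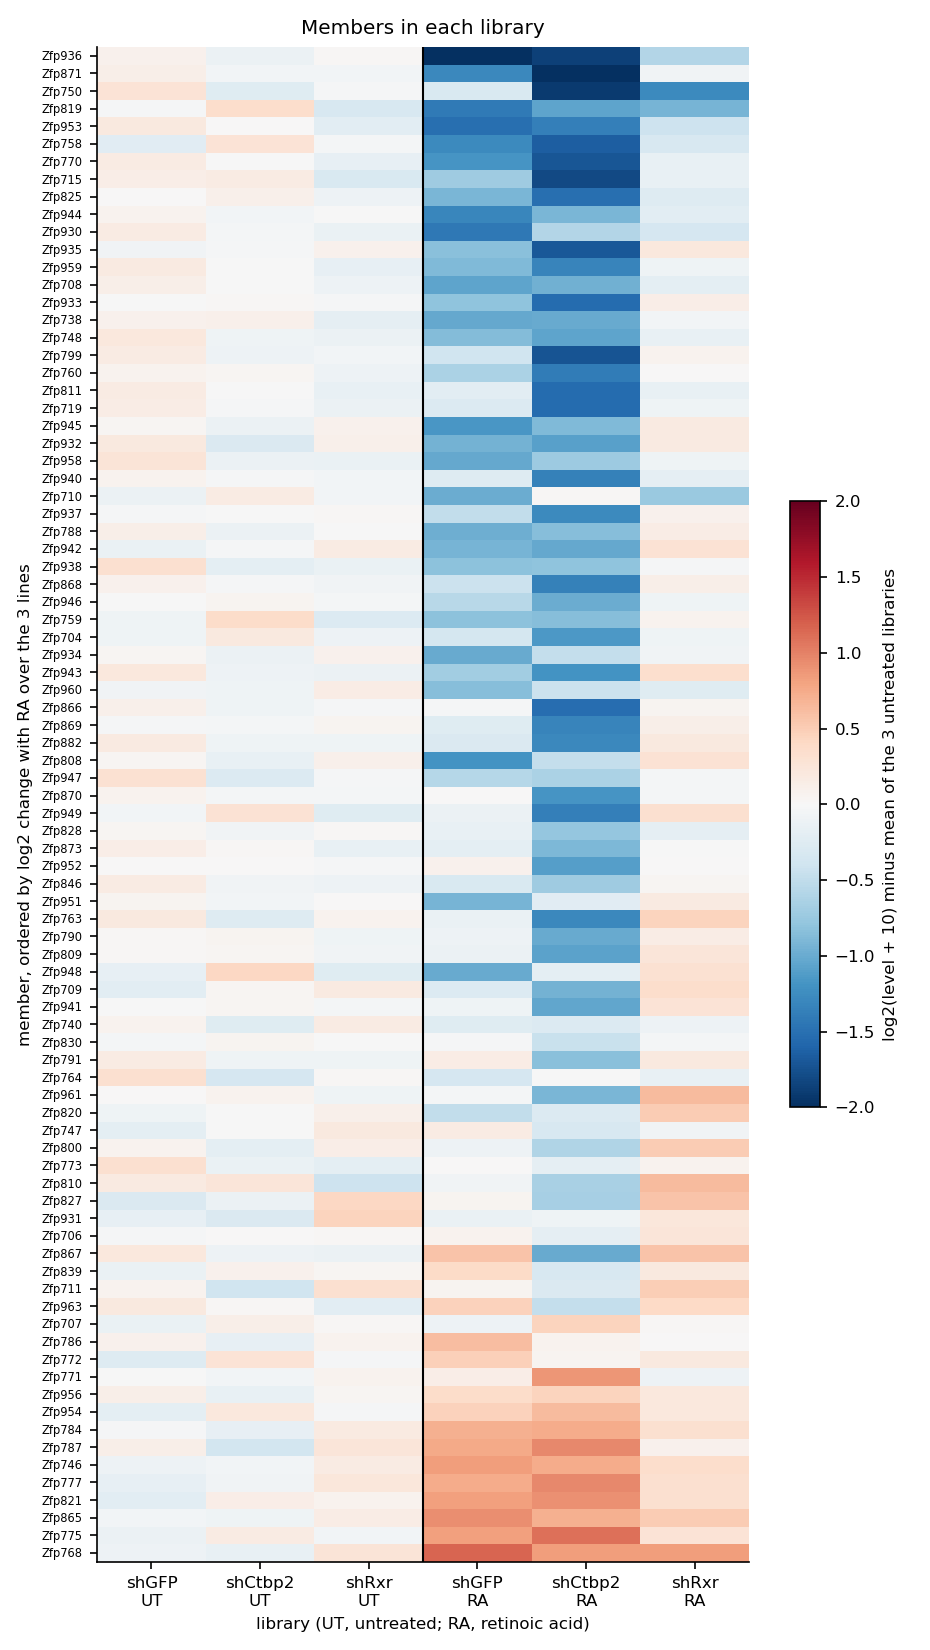
Each row is 1 of the 86 tested members, ordered by its log2 change with RA over the lines, and each column 1 library; colour is log2(normalised reads + 10) minus the mean of the 3 untreated libraries, with shades ending at 2 either way. The blue blocks fill the shGFP and shCtbp2 RA columns and are mostly absent from the shRxr RA column, while the untreated columns are pale.

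Members with a KRAB match had lower median RA differences than those without in shGFP and shCtbp2, and the same median in shRxr. Over the 54 tested, the median RA difference was -0.48 (shGFP), -1.01 (shCtbp2) and 0.13 (shRxr). Of these 14, 27 and 0 were at least 2-fold lower. Over the 27 without a match it was 0.02, -0.14 and 0.13, with 3, 4 and 1 at least 2-fold lower. The summed level of all 59 KRAB members went from 9174 untreated to 7148 normalised reads in RA in shGFP, from 8845 to 4888 in shCtbp2 and from 8671 to 9921 in shRxr. That of the 29 members with a coding sequence and no match went from 12539 to 11824, from 12613 to 11170 and from 13076 to 12492. The other Zfp genes with a KRAB match, 78 tested, had medians of -0.44, -0.87 and 0.09.

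**Figure D3:**
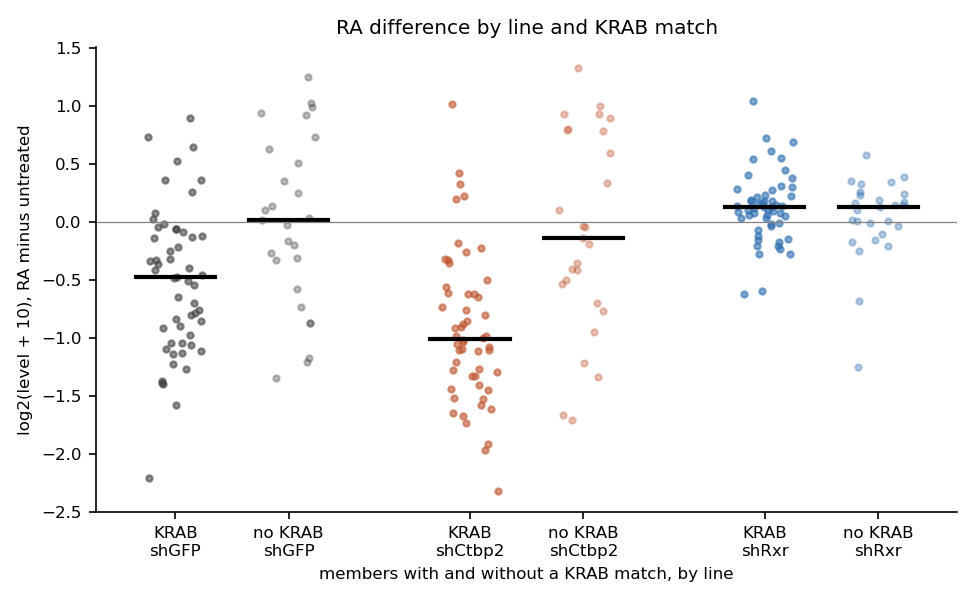
RA minus untreated, on the scale log2(normalised reads + 10), for each tested member (points) with and without a KRAB match in each line; black bars are medians. In the order shGFP, shCtbp2, shRxr the KRAB medians are -0.48, -1.01 and 0.13, and those without a match 0.02, -0.14 and 0.13.

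GC content moved with the RA difference among the members and among other genes. Across the 81 tested members with a GC value, Spearman's rho between transcript GC content and the RA difference was 0.75 (shGFP), 0.48 for shCtbp2 and 0.02 for shRxr. Across 11824 tested genes that are no Zfp genes it was 0.36, 0.63 and -0.07. These are descriptions across genes that share the same libraries. The 54 members below the lower quartile of GC content over the tested genes (46.0%) had median RA differences of -0.62, -0.99 and 0.13 in shGFP, shCtbp2 and shRxr, and 2880 other genes of that GC range had -0.25, -0.95 and 0.15. In shGFP 29.6% of these members and 15.0% of these other genes were at least 2-fold lower, and in shCtbp2 48.1% and 47.2%.

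Below this quartile, members with and without a KRAB match can be set side by side. The 46 members with a match had medians of -0.53, -1.03 and 0.13, and the 8 without one -0.80, -0.59 and 0.14. At the other end, the 10 members above the upper quartile (55.5%) had medians of 0.91, 0.87 and 0.14, against 0.36, 0.74 and 0.06 in 2985 other genes. Zfp768, Zfp777, Zfp787, Zfp821, Zfp865, Zfp775, Zfp746, Zfp707, Zfp710 and Zfp771 make up that range.

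**Figure D4:**
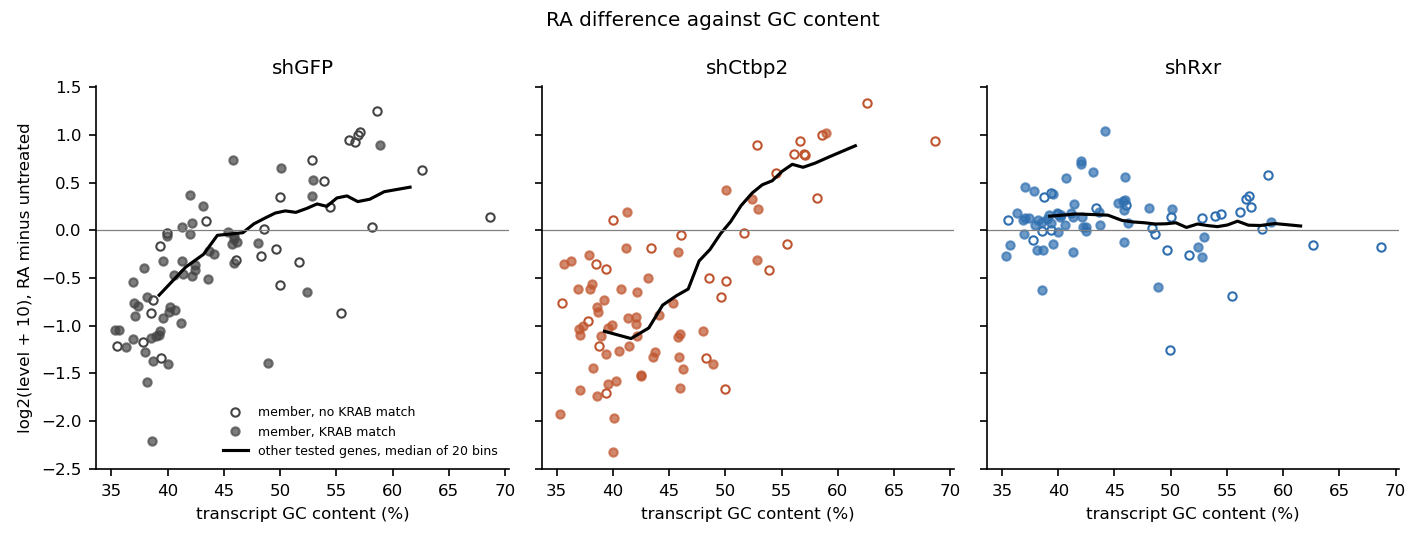
RA minus untreated, on the scale log2(normalised reads + 10), against the GC content of the transcript in percent, in 1 panel per line; points are the 81 tested members with a GC value and the black line joins medians of other tested genes in bins of GC content. Members climb from the lower left in shGFP and shCtbp2, as the line does, and lie flat in shRxr.

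When a smooth trend on GC content and transcript length, fitted to all genes, was removed from each library, the members' median RA differences became 0.07, -0.18 and 0.10, again in the order shGFP, shCtbp2, shRxr. At least 2-fold lower were then 5, 7 and 1 members, and 0, 1 and 0 were higher. Of all 12332 genes 610, 1065 and 181 were then lower, and 1478, 1159 and 633 higher. Zfp953, which has no GC value and stayed uncorrected, is among the lower members in shGFP and shCtbp2. The members' median change over the lines became 0.01. The part of GC content in the members' RA differences was not tested.

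After this removal limma called 0 members raised and 5 lowered, beside 1853 and 1048 of all 12332 genes. With Benjamini-Hochberg adjustment, Zfp936 fell by 0.92 on the log2 scale (adjusted p = 0.018), Zfp750 by 1.20 (adjusted p = 0.015) and Zfp819 by 1.10 (adjusted p = 0.018). Zfp953, which has no GC value and was left uncorrected, fell by 1.10 (adjusted p = 0.043). Zfp710 entered at -0.80 (adjusted p = 0.015), from -0.56 before (adjusted p = 0.17). Zfp871 was at -0.49 (adjusted p = 0.085) and Zfp768 at 0.58 (adjusted p = 0.088), and both were past the threshold only without the removal. Zfp750 and Zfp819, with transcripts of 49.97% and 48.9% GC, changed little in size, and Zfp936, at 38.6%, and Zfp871, at 40.0%, shrank most.

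**Figure D5:**
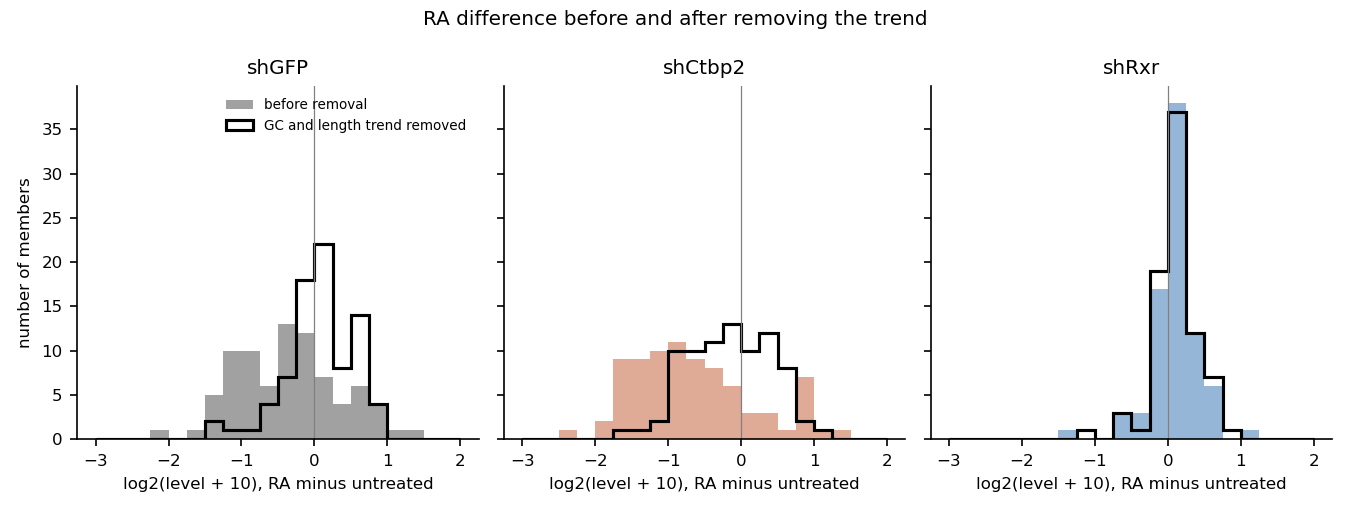
Number of members (vertical axis) by RA minus untreated, on the scale log2(normalised reads + 10) in steps of 0.25, for the 81 tested members with a GC value; filled bars are before and outlines after removal of the GC and length trend. The shGFP and shCtbp2 distributions move to around 0, and the shRxr one hardly moves.

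With a gap of at most 500 kb, 59 of the 96 members stood in 14 runs on mm9. All tested changes over the lines were below 0 in 9 runs and above 0 in 2, and 3 runs held both signs, where 67 of the 86 tested members lay below 0. The run with Zfp768, on chromosome 7 from 134388040 to 134550336, was one of mixed sign, with 2 of 4 below 0. The longest run, 10 members on chromosome 17 from 21704010 to 23004101 (Zfp948 to Zfp945, 8 of them with a KRAB match), had all 10 log2 changes over the lines below 0, from -1.08 (Zfp758) to -0.08 (Zfp820), and a median GC content of 37.6%. On chromosome 7 from 50442540 to 50873655, Zfp936, Zfp715, Zfp719 and Zfp819 lay between -1.52 and -0.63. On chromosome 6 from 47769265 to 48036592, Zfp786, Zfp956, Zfp777 and Zfp746 lay between 0.23 and 0.67, and the median GC content of this run was 55.3%. Genes of a run can share ancestry and base composition, so they are not independent.

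Reads of near-identical copies could have been split or lost in counting. Over 20% of the 50-base stretches of the transcript recur in another gene for 14 members, among them Zfp935 and 1 of the Zfp708 genes at 100%, Zfp932 at 55.5% with Gm15446, Zfp931 at 52.6% and Zfp808 at 46.4%. The levels of these genes are uncertain. Another deposited gene overlaps 19 members.

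The knock-downs were compared with shGFP over both treatments, so both comparisons share the shGFP libraries. For shCtbp2 no member passed limma's adjusted threshold, where 0.146% of all genes did, and at an unadjusted p under 0.05 there were 3 (Zfp750, Zfp866 and Zfp867, all lower), where 8.85% of all genes were. For shRxr no member passed, where 0.00811% of all genes did, and none had an unadjusted p under 0.05, where 1.23% did. The voom form of limma on the recovered reads also called none for either. With all libraries the medians over the members were -0.24 for shCtbp2 and 0.13 for shRxr, and over all genes -0.12 and -0.02. Without the untreated shCtbp2 library, the difference of shCtbp2 from shGFP rests on shCtbp2_RA alone. Its median was then -0.43 over the members and -0.18 over all genes.

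The members that leaned the same way at both treatments are given by their log2 differences from shGFP, untreated and then in RA, ordered by the smaller of these in size. By this order the lowest in shCtbp2 were Zfp750 (-0.51 and -1.60), Zfp763 (-0.45 and -1.15), Zfp711 (-0.47 and -0.34), Zfp943 (-0.31 and -0.51) and Zfp867 (-0.31 and -1.58), and highest were Zfp948 (0.58 and 0.80), Zfp819 (0.38 and 0.37) and Zfp710 (0.28 and 1.01). Highest in shRxr were Zfp827 (0.71 and 0.51), Zfp709 (0.39 and 0.63) and Zfp931 (0.62 and 0.36), and lowest was Zfp750 (-0.30 and -0.97). The next lowest in shRxr, Zfp956, was at -0.07 and -0.15.

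In the untreated libraries no tested member differed 2-fold between a knock-down line and shGFP. None was at least 2-fold higher or lower in shCtbp2, where 1.39% and 2.34% of all genes were, or in shRxr, where 0.389% and 0.0649% were. The members' differences ran from -0.65 to 0.58 in log2 for shCtbp2 and from -0.60 to 0.71 for shRxr, with Zfp827, linked to telomere chromatin and the NuRD complex, at the top of the second range. Zfp827 was at 248 normalised reads in untreated shGFP and 413 in untreated shRxr, and at 320 and 458 in RA.

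In RA, 15 members were at least 2-fold lower in shCtbp2 than in shGFP and 1, Zfp710, was higher, where 14.8% and 3.18% of all genes were. Zfp867 was at 221 normalised reads in shGFP_RA and 67.3 in shCtbp2_RA, Zfp866 at 480 and 162, and Zfp949 at 159 and 61.4. Zfp710 stood at 881 and 1790, and its untreated levels were 1618 and 1973. In shCtbp2 the RA response of Zfp710 was thus a log2 difference of -0.14, against -0.87 in shGFP and -0.68 in shRxr.

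In RA, 15 members were at least 2-fold higher in shRxr than in shGFP and none was lower, where 3.74% and 2.62% of all genes were. The order was led by Zfp936 (log2 difference 1.52), Zfp808 (1.48), Zfp945 (1.36) and Zfp948 (1.30). Zfp808 was at 121 normalised reads in shGFP_RA and 356 in shRxr_RA, and at 296 and 312 in the untreated libraries. Across the 81 members Spearman's rho of this difference with GC content was -0.85, and -0.51 across the genes that are no Zfp genes. After the trend was removed 1 member was at least 2-fold higher and none lower, beside 195 and 253 of all 12332 genes. That member was Zfp953, which has no GC value and was left uncorrected.

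Next the RA responses were set against each other, by subtracting the log2 difference of shGFP from that of a knock-down. They differed by at least 1 in 13 members for shCtbp2. The response was lower in 12 and higher in 1, Zfp930, where 12.4% and 2.72% of all genes were. Under either other scaling of the libraries (median-of-ratios, or upper quartiles set equal), it was lower in 5 and higher in 3. Of all 12332 genes 1113 were lower and 519 higher with median-of-ratios, and 1001 and 604 with equal upper quartiles. Zfp949 (-1.59), Zfp866 (-1.33), Zfp867 (-1.27), Zfp952 (-1.18) and Zfp811 (-1.16) differed most downwards, and Zfp930 (1.02), Zfp764 (0.98), Zfp808 (0.90), Zfp771 (0.80) and Zfp951 (0.79) most upwards. Zfp930 was at 182 and 54.0 normalised reads in shGFP untreated and in RA and at 158 and 104 in shCtbp2. For shRxr the response was higher by at least 1 in 22 members and lower by as much in none, where 5.6% and 4.47% of all genes were. Zfp936 (1.59), Zfp953 (1.51), Zfp808 (1.41), Zfp871 (1.38) and Zfp948 (1.38) led, and Zfp777 (-0.81) and Zfp821 (-0.79) stood at the other end. After the trend was removed these counts were 1 higher and 6 lower for shCtbp2, beside 194 and 750 of all 12332 genes. For shRxr they were 2 higher and none lower, beside 254 and 364 of all genes. Of these 2 members, 1 was Zfp953, which has no GC value and was left uncorrected.

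Of the members with listed roles in repression of retroelements, Zfp819 was called over the lines, and Zfp809, Zfp932 and Zfp708 were not. Zfp809, which binds the primer binding site of murine leukaemia virus and recruits Trim28, was at 197, 199 and 183 normalised reads untreated in shGFP, shCtbp2 and shRxr and at 177, 86.1 and 229 in RA. Only the shCtbp2_RA library stood apart, 2.31 times below its untreated level (1.80 to 2.98). Zfp932, which represses endogenous retroviruses of the ERVK group together with its paralog Gm15446, was at 95.8, 66.2 and 89.6 untreated and at 38.3, 33.6 and 95.4 in RA. It was lower in shGFP and shCtbp2 and close to its untreated level in shRxr. Of the 2 genes named Zfp708, 1 was tested and was at 54.8, 49.6 and 46.0 untreated and at 18.8, 20.8 and 42.2 in RA.

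Of the members with other listed roles, Zfp750 and Zfp768 were called. Zfp706, needed for mouse embryonic stem cells to leave self-renewal, had the highest mean level, 2245 normalised reads, and ranged from 1946 (shCtbp2_RA) to 2616 (shRxr_RA). Zfp740 followed with a mean of 1991 and a range of 1763 to 2369, and led the members per kilobase of transcript with 2013. Zfp830, needed for survival of the inner cell mass, ran from 267 (shCtbp2_RA) to 382 (shCtbp2_UT). Zfp828, also called Champ1, which helps chromosomes align in mitosis, was between 1634 and 1776 untreated and at 1549, 1000 and 1522 in RA. Zfp746, the PARIS repressor of PGC-1alpha, was at 264, 275 and 321 untreated and at 518, 485 and 367 in RA, all RA values above all untreated ones, with an adjusted p of 0.13 (limma, Benjamini-Hochberg). Zfp711, whose human counterpart is linked to intellectual disability, and Zfp800 had log2 changes of 0.09 and -0.06. At the edge of the rule, Zfp704 was at 1388, 1676 and 1363 untreated and at 1151, 657 and 1381 in RA, while its neighbour in name Zfp703, outside it, went from 23.4, 9.93 and 17.6 to 2900, 2177 and 556.

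The 10 untested members had means below 20 normalised reads. Zfp831, Zfp872 and Zfp957 had means of 1.05, 1.23 and 0.42, Zfp950 had 8.99, and Zfp708 (the second identifier), Zfp712, Zfp850, Zfp879, Zfp939 and Zfp964 lay between 13.9 and 18.7. None of the 96 members was at 0 in all 6 libraries.

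The partners of KRAB proteins were looked up from a list of 26 genes, found on 27 identifiers because Atf7ip has 2. Of these 1 rose with RA over the lines, Suv39h1, a heterochromatin histone methyltransferase. The 2 that fell were Dnmt3l, a cofactor of DNA methyltransferases, and Atrx, a chromatin remodeller. Over all genes 10.8% were raised and 4.63% lowered, so the 1 raised lies below the background and the 2 lowered near it. Suv39h1 was at 530, 385 and 716 normalised reads untreated in shGFP, shCtbp2 and shRxr and at 1527, 1108 and 1109 in RA (log2 change 1.21, limma Benjamini-Hochberg adjusted p = 0.010). Dnmt3l was at 2529, 3018 and 1236 untreated and at 512, 880 and 701 in RA (-1.62, limma Benjamini-Hochberg adjusted p = 0.0031). Atrx was at 4742, 3347 and 4919 untreated and at 1190, 829 and 4364 in RA (-1.39, limma Benjamini-Hochberg adjusted p = 0.016), so its RA level too was lower in shGFP and shCtbp2 and near the untreated level in shRxr. Trim28, the corepressor that KRAB domains bind, was at 22793, 23555 and 22593 untreated and at 15544, 28800 and 16654 in RA. Its adjusted p was 0.60 (limma, Benjamini-Hochberg). The same removal moved its RA differences from -0.55, 0.29 and -0.44 to -0.91, -0.51 and -0.45. The list's median RA differences were -0.23, -0.74 and -0.11, in the order shGFP, shCtbp2, shRxr, where those over all genes were 0.12, 0.07 and 0.09.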

How the data were processed

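The deposited values are log2 of reads scaled by the authors to 10000000 counted in genes, plus 1; per the submitters' processing notes the tools were TopHat 1.4 and HTSeq on mm9. For counting mode, strand and annotation release, nothing was given in the sources used here. Unlogging the values and dividing by the value of 1 read returned whole reads (100% of values, tolerance 1e-06). The members and gene lists were chosen with earlier results of these data known.

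Genes with a mean of at least 20 were tested on log2(value + 10) with limma 3.58.1 (trend; R 4.3.3), with line and treatment as terms, 2 residual and 11.2 prior degrees of freedom, and Benjamini-Hochberg adjustment over all tested genes. The residual holds differences between lines in RA response, and the p-values measure only the spread between these libraries. Adding 10 understates changes of low genes. Single libraries were compared without a test, at 2-fold, with exact binomial (Clopper-Pearson) 95% intervals of the reads.

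GC content, length, coding sequence and 50-base stretches came from GENCODE M21 transcripts, matched by identifier, which 7 members lack; 5 of these were tested and stay uncorrected in the GC removal. That removal subtracted natural splines of GC content and log2 length, 5 degrees of freedom each, per library. KRAB and finger matches were patterns in translated coding sequence. The script was tested on simulated data. Named members were the called ones, the 8 highest in mean level, listed known roles, and the 5 most different either way per knock-down in level at both treatments and in RA response. Tables used pandas 2.3.3 and numpy 2.4.6 in Python 3.11.15, intervals scipy 1.17.1, and figures matplotlib 3.10.9.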

Additional observations from a re-analysis of the deposited data

Results flagged for a closer look

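The members' median RA difference had opposite signs between lines. It was 0.11 in shRxr and -0.35 in shGFP, and it was -0.83 in shCtbp2 against 0.11 in shRxr. With 1 library per group this difference was not tested. After the GC and length trend was removed the medians were 0.10, 0.07 and -0.18 in shRxr, shGFP and shCtbp2.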

How the results depend on the processing

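The line term of the fit already sets RA against untreated libraries within each line. No paired analysis by replicate number was possible because the labels give none. For RA over the lines (1 member raised, 5 lowered), the counts were 0 and 2 with no filter beyond 1 read, 0 and 1 at a mean of at least 100, and 1 and 9 with equal upper quartiles as with median-of-ratios scaling. Removal of the GC and length trend gave 0 raised and 5 lowered, and the same removal without shCtbp2_RA, chosen after seeing the data, gave 3 and 4. The voom form of limma on recovered reads called 1 and 4 members, beside 1325 and 529 of all genes. Leaving out a library or a line gave 0 to 4 raised and 0 to 27 lowered, beside 371 to 1754 and 86 to 1499 of all genes. The highest values came without shRxr libraries. The called changes of Zfp936, Zfp871, Zfp750, Zfp819, Zfp953 and Zfp768 kept their direction in every fit that tested them. Of the 9 fits that left out a library or a line, each was still called only in those without shRxr libraries. Leaving out a line's untreated library, its RA library or the whole line gives the same RA change. These 9 fits thus hold 1 RA contrast for each line left out. Over these 9 fits Zfp871 ran from -1.86 to -0.71, and the highest adjusted p was 0.67, for Zfp768 (limma, Benjamini-Hochberg). For shCtbp2 over treatments, leaving out a library of that line leaves it a single one, so only sizes are given. The members' median was -0.43 without its untreated library and 0.08 without its RA library. The cause was not tested.

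Members at least 2-fold apart, in either direction, were fewer with 50 added to the level instead of 10. They numbered 6 for RA in shGFP (21 as reported), 17 in shCtbp2 (36) and 0 in shRxr (2), 2 for shCtbp2 and 4 for shRxr against shGFP in RA (16 and 15), and 3 and 5 for the differences in RA response (13 and 22). With 1 added, shRxr against shGFP in RA gave 25 and the shCtbp2 difference in response 24. At a mean of at least 100 the counts were 11, 20 and 0 for RA in the 3 lines, 7 for shRxr against shGFP in RA and 10 for its difference in response, with 45 members tested. With no filter RA in shRxr gave 4. Both other scalings gave 1 for RA in shRxr and 8 for the shCtbp2 difference in response. Removal of the GC and length trend gave 5, 8 and 1 for RA in the 3 lines, 9 for shCtbp2 and 1 for shRxr against shGFP in RA, and 7 and 2 for the differences in response. Zfp953, left uncorrected, is counted there for RA in shGFP and shCtbp2. It is also counted in both shRxr comparisons with shGFP. Removal of the GC and length trend moved the members' median RA change over the lines from -0.40 to 0.01, and to 0.09 without shCtbp2_RA as well. The 10 members with a mean below 20 were not tested.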
